A study of Mus musculus with 8 samples.

Results

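The 9 genes described here encode proteins of the myelin sheath and of the oligodendrocyte surface: Mobp, Mal, Cldn11, Opalin, Ermn, Tspan2, Gpr37, Cntn2 and Omg. They were taken by symbol from the 55032 rows of the deposited gene table, and each symbol matched 1 row. The groups were 4 WT and 4 16p11.2+/- female C57BL/6 mice at postnatal day 60, and striatum of each mouse gave 1 library of total RNA. The 16p11.2+/- mice carry in every cell 1 chromosome 7 without the segment that corresponds to human 16p11.2, the WT mice carry both copies. The labels do not say whether the mice shared litters. Mice are named as in the labels, with DF for 16p11.2+/-. All 9 genes passed the filter on low counts (18294 of 55032 genes did).

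Oligodendrocytes wrap axons with layers of membrane that are squeezed together into compact myelin, and keep cytoplasm only in loops at the inner and outer edge and beside the nodes of Ranvier. Proteins of the compact part hold the layers together, proteins of the loops link the membrane to the cytoskeleton and the axon, and surface glycoproteins carry signals between the sheath, the axon and its neighbours. In striatum the sheaths lie mostly in the fibre bundles that cross the neuron-rich tissue. Some of these genes, above all Omg, Cntn2 and Gpr37, are also transcribed in neurons. In bulk tissue a lower level of a transcript can come from fewer cells of a type or from less RNA per cell. Bulk RNA alone cannot tell these apart. By immunostaining of brain sections at the same age, the paper found no significant difference in striatal numbers of oligodendrocyte lineage cells or mature oligodendrocytes. Cells were not counted in the pieces that gave the RNA.

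Between 15125051 and 16523429 reads were counted per mouse, and reads of the 9 genes made up between 0.377% and 0.431% of them in WT mice and between 0.240% and 0.333% in 16p11.2+/- mice. Of 16 genes of the deleted segment, 16 had a negative log2 fold change and 11 had an adjusted p under 0.05 in edgeR (a model of read counts across all genes, with p adjusted over all 18294 genes tested), so the genotypes matched their labels in expression. Striatal identity was checked on 9 medium spiny neuron markers (Ppp1r1b, Drd1 and Pde10a among them), and none of the 9 was at 0 in any mouse. Their summed FPKM was between 919 and 1545 in WT mice and between 282 and 1443 in 16p11.2+/- mice, with DF-1037 and DF-1062 lowest. The pieces also differed in RNA of tissue around the striatum. The mean log2 CPM (log2 of counts relative to the library total) of 7 thalamus markers was between 2.96 and 3.06 in WT-1015, WT-1041 and WT-1061, 3.52 in DF-1059, and between 5.23 and 6.23 in WT-1063, DF-1018, DF-1037 and DF-1062. The 7 choroid plexus markers had a summed FPKM of up to 4448 in WT mice, reached in WT-1063, and of up to 127 in 16p11.2+/- mice, and 1 of them, Kcnj13, was at 0 in at least 1 mouse. The mean log2 CPM of 6 cortical glutamatergic neuron markers was between 2.26 and 5.87 in WT mice and between 1.66 and 6.20 in 16p11.2+/- mice. Schwann cell markers, which would mark peripheral myelin, had a summed FPKM of at most 1.71 in any mouse.

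FPKM (fragments per kilobase of gene, scaled to the depth of the library) is a level per length, so that it can be compared between genes. Over all 8 mice Mobp was the highest of the 9 genes, with a mean FPKM of 268 ± 55.6 (SD, n = 8), followed by Mal with 167 ± 31.6, Cldn11 with 116 ± 25.0 and Tspan2 with 67.9 ± 10.3. Omg with 47.9 ± 3.05 and Ermn with 44.3 ± 7.73 came next, then Cntn2 with 29.4 ± 1.87, Gpr37 with 17.1 ± 2.58 and Opalin with 10.5 ± 2.26 (SD, n = 8 each). Each gene was above its next lower neighbour in all 8 mice, with the exception of Omg and Ermn, whose order held in only 5 of 8 mice. The ranges over the 8 mice overlapped between neighbours, except for Tspan2 with Omg and Cntn2 with Gpr37. Mobp stood at the 99.7th percentile and Opalin at the 74.2nd percentile of mean FPKM among the genes tested.

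**Figure D1:**
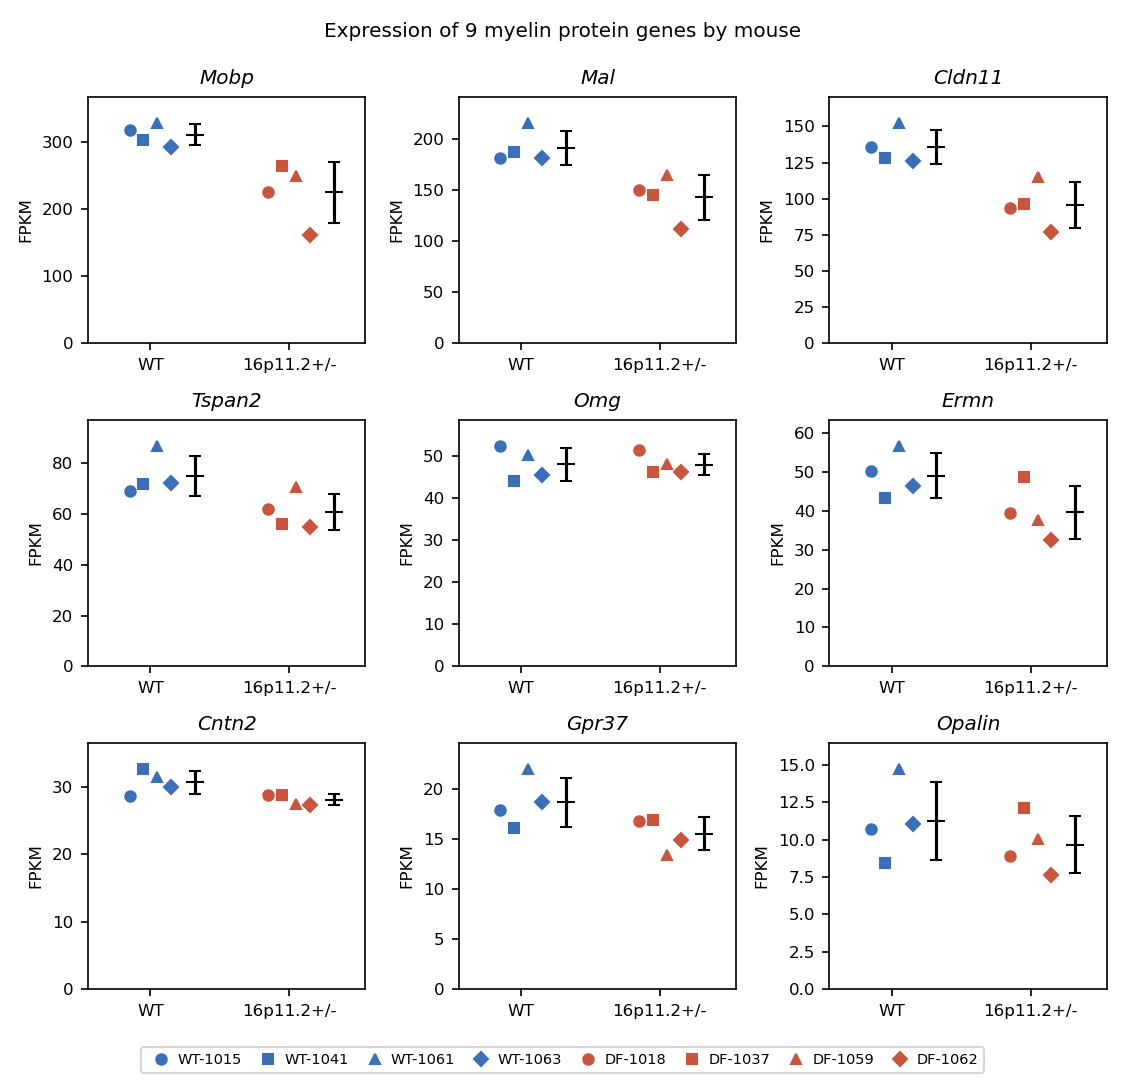
FPKM (y axis, from 0) of each of the 9 genes in each of the 4 WT (blue) and 4 16p11.2+/- (red) mice, 1 symbol per mouse, with the mean and SD of each group in black. For Mobp, Mal and Cldn11 every 16p11.2+/- mouse lay below every WT mouse, whereas for Omg the groups covered nearly the same range.

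The question of the comparison was whether transcripts of myelin proteins differ between 16p11.2+/- and WT striatum. The log2 fold change (16p11.2+/- against WT, so that negative stands for lower in 16p11.2+/- striatum) was negative for 9 of 9 genes, with a median of -0.32, and it was negative for 51.8% of all genes tested, whose median was -0.01. With edgeR's quasi-likelihood test, 0 of the 9 genes had an adjusted p under 0.05, against 0.109% of all genes tested (0.0929% with a lower level). At an unadjusted edgeR p under 0.05 there were 5 of 9 genes, Cldn11, Mal, Mobp, Tspan2 and Gpr37, all lower, beside 2.37% of all genes tested that were lower at this level. DESeq2 and limma-voom also gave 0 genes after adjustment, and at an unadjusted p under 0.05 DESeq2 gave 4 genes (2.31% of all genes it tested were lower at this level) and limma-voom 6 (2.54%). Without WT-1061, the WT mouse with the highest level of 7 of the 9 genes, the edgeR count at an unadjusted p under 0.05 was 2 (1.98% of all genes tested in that fit were lower at this level), and without DF-1062, the mouse with the lowest level of 7 of the 9 genes, it was 3 (1.38%). The groups did not overlap, with 16p11.2+/- lower, for 3 of the 9 genes, Mobp, Mal and Cldn11, and for 1.62% of all genes tested.

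Mobp, Cldn11 and Mal encode proteins of compact myelin. Mobp (ENSMUSG00000032517, chromosome 9 from 120149707 to 120181484, forward strand) encodes a small basic protein that lies between the cytoplasmic faces of the membrane layers, and 1.15% of its exon sequence overlaps Gm38642. Its FPKM was 319, 303, 328 and 293 in WT-1015, WT-1041, WT-1061 and WT-1063, and 225, 264, 249 and 161 in DF-1018, DF-1037, DF-1059 and DF-1062. No 16p11.2+/- mouse reached the lowest WT value, and the 16p11.2+/- mice were spread more widely, with a coefficient of variation of 20.2% against 5.08% in WT mice. The WT mean was 311 ± 15.8 (SD, n = 4) and the 16p11.2+/- mean 225 ± 45.5 (SD, n = 4), with a two-sided exact permutation p of 0.0286 (the smallest that 4 against 4 mice can give, and 0.889 adjusted over all genes tested). In edgeR the estimated log2 fold change came to -0.48 ± 0.17 (SE), at an edgeR p of 0.0210 before and 0.859 after adjustment over all genes.

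Cldn11 (ENSMUSG00000037625, chromosome 3 from 31149920 to 31164324, forward strand) encodes claudin 11, which forms the tight junction strands that run across the layers of central myelin. Its FPKM in the WT mice, in the same order, was 136, 128, 152 and 126, and in the 16p11.2+/- mice 93.6, 96.6, 115 and 76.7. The groups did not overlap (exact permutation test, p = 0.0286), and the means were 136 ± 11.8 (SD, n = 4) and 95.5 ± 15.7 (SD, n = 4). Cldn11 had the most negative log2 fold change of the 9 genes, -0.52 ± 0.14 (SE), at an edgeR p of 0.00463 before and 0.859 after adjustment.

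Mal (ENSMUSG00000027375, chromosome 2 from 127633226 to 127656695, reverse strand) encodes a proteolipid that gathers in glycosphingolipid-rich membrane. Its FPKM was 181, 187, 215 and 181 in the WT mice and 150, 145, 165 and 112 in the 16p11.2+/- mice. Here too the groups did not overlap (exact permutation test, p = 0.0286), with means of 191 ± 16.4 (SD, n = 4) and 143 ± 22.4 (SD, n = 4). Its log2 fold change came to -0.44 ± 0.14 (SE), at an edgeR p of 0.0140 before and 0.859 after adjustment.

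In the RefSeq promoter table (GRCm38.p6, 250 bases before to 50 bases after the start site) 8 of the 9 genes had an entry, with 9 windows because Tspan2 had a pair. The letters ACAAAG (a core motif of SOX factors, to which the oligodendrocyte regulator SOX10 belongs), CTGGCAC and CTGGTAC (MYRF) and GGGCGG (GC box) were searched on both strands. ACAAAG was found in 3 of the 9 windows (Mobp, Opalin and the second of Tspan2) and in 18.7% of all 32851 windows, CTGGCAC or CTGGTAC in 1 (Opalin) and in 7.10%, and GGGCGG in 2 (Cldn11 and Gpr37) and in 35.7%. The Mobp window held 6 copies, all read as CTTTGT on the forward strand, and it was the only 1 of the 32851 windows with 6 or more. These 4 windows are shown because they belong to the 3 genes whose groups did not overlap and to Opalin, the only window with a MYRF match. They are written 5′ to 3′ along the gene, and the capitals mark the matches.
Mobp (chr9:120149492-120149791, forward strand): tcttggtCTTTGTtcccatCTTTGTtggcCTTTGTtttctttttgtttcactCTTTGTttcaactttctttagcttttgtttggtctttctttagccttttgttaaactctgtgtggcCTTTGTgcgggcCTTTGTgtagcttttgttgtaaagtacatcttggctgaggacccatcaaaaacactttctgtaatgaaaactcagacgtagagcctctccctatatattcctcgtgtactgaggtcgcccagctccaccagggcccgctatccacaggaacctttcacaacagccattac
Cldn11 (chr3:31149670-31149969, forward strand): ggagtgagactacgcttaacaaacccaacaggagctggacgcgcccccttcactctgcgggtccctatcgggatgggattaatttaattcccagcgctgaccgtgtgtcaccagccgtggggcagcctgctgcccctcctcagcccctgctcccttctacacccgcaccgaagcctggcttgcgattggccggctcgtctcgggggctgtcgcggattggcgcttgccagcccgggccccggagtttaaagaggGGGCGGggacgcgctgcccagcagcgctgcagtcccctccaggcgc
Mal (chr2:127656646-127656945, reverse strand): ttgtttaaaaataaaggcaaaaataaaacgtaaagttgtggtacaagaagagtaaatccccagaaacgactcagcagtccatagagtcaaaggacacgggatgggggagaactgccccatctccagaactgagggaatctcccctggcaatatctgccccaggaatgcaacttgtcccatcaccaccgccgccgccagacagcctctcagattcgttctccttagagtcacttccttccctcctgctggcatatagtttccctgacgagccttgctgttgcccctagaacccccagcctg
Opalin (chr19:41077064-41077363, reverse strand): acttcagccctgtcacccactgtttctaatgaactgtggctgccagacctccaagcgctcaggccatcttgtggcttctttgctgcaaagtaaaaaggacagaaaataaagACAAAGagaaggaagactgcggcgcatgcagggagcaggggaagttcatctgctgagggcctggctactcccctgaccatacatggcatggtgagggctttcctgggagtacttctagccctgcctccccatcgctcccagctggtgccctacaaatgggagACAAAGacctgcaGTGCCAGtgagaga
The matches are a description of letters, and no binding was measured. Mobp, Cldn11 and Mal shared none of the 3 motifs in these windows, whose GC content was 43.3%, 66.3% and 51.0%.

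Tspan2 (ENSMUSG00000027858, chromosome 3 from 102734529 to 102801513, forward strand) encodes a tetraspanin, a scaffold protein that crosses the membrane, and 1.85% of its exon sequence overlaps the antisense gene Tspan2os. Its FPKM was 68.9, 72.1, 86.8 and 72.1 in WT mice and 61.9, 56.2, 70.6 and 54.8 in 16p11.2+/- mice. The groups overlapped only through DF-1059, which lay just above WT-1015. WT mice averaged 75.0 ± 8.02 and 16p11.2+/- mice 60.9 ± 7.21 (SD, n = 4 each), with an exact permutation p of 0.0571. edgeR put the log2 fold change at -0.32 ± 0.12 (SE), with p = 0.0283 before and 0.859 after adjustment.

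Ermn and Opalin encode proteins of the cytoplasm-filled loops. Ermn (ENSMUSG00000026830, chromosome 2 from 58045113 to 58052864, reverse strand) encodes ermin, an actin-binding protein of the outer lip and the paranodal loops, and 6.52% of its exon sequence overlaps Galnt5 on the opposite strand. The strand setting of the counting is not stated, so how reads in that overlap were counted is not known. The FPKM of Ermn was 50.2, 43.2, 56.6 and 46.3 in WT mice and 39.5, 48.7, 37.6 and 32.6 in 16p11.2+/- mice, and DF-1037 alone lay within the WT range. WT mice averaged 49.1 ± 5.79 and 16p11.2+/- mice 39.6 ± 6.74 (SD, n = 4 each), with an exact permutation p of 0.0857. edgeR put the log2 fold change at -0.33 ± 0.15 (SE), with p = 0.0534 before and 0.859 after adjustment.

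Opalin (ENSMUSG00000050121, chromosome 19 from 41061710 to 41077113, reverse strand) encodes a sialylated membrane glycoprotein of the paranodal and inner loops. It was counted with between 231 and 443 reads per mouse, the fewest of the 9 genes. Its FPKM was 10.7, 8.45, 14.7 and 11.1 in WT mice and 8.92, 12.1, 10.04 and 7.61 in 16p11.2+/- mice, so that the groups overlapped widely. WT mice averaged 11.24 ± 2.59 and 16p11.2+/- mice 9.66 ± 1.90 (SD, n = 4 each), with an exact permutation p of 0.400. Around the log2 fold change of -0.24 the fit gave a 95% interval from -0.70 to 0.22 (edgeR p of 0.273, adjusted 0.859).

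Gpr37, Cntn2 and Omg encode surface proteins that meet ligands or the axon. Gpr37 (ENSMUSG00000039904, chromosome 6 from 25665878 to 25690729, reverse strand) encodes a G protein-coupled receptor that restrains oligodendrocyte differentiation and responds to prosaposin. Its FPKM was 17.9, 16.1, 22.0 and 18.7 in WT mice and 16.8, 16.9, 13.5 and 14.9 in 16p11.2+/- mice. DF-1018 and DF-1037 lay above WT-1041, the lowest WT mouse. WT mice averaged 18.7 ± 2.47 and 16p11.2+/- mice 15.5 ± 1.66 (SD, n = 4 each), with an exact permutation p of 0.0857. edgeR put the log2 fold change at -0.29 ± 0.12 (SE), with p = 0.0461 before and 0.859 after adjustment.

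Cntn2 (ENSMUSG00000053024, chromosome 1 from 132509427 to 132543256, reverse strand) encodes contactin 2, an adhesion protein on axon and glia that holds potassium channels beside the paranode. Its FPKM was 28.6, 32.6, 31.5 and 29.9 in WT mice and 28.8, 28.8, 27.4 and 27.3 in 16p11.2+/- mice. The groups overlapped through WT-1015, and the means of 30.6 ± 1.76 (SD, n = 4) and 28.1 ± 0.815 (SD, n = 4) lay close together (exact permutation test, p = 0.0857). Its log2 fold change came to -0.15 ± 0.08 (SE), at an edgeR p of 0.0946 before and 0.859 after adjustment.

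Omg (ENSMUSG00000049612, chromosome 11 from 79500982 to 79504084, reverse strand) encodes oligodendrocyte myelin glycoprotein, a ligand of the Nogo receptor, and lies wholly within Nf1, which is read from the opposite strand. None of its exon sequence overlaps an exon of Nf1 or of another gene. Its FPKM was 52.2, 43.9, 50.2 and 45.3 in WT mice and 51.4, 46.1, 47.9 and 46.0 in 16p11.2+/- mice, and all 4 16p11.2+/- values lay within the WT range. WT mice averaged 47.9 ± 3.93 and 16p11.2+/- mice 47.8 ± 2.50 (SD, n = 4 each), with an exact permutation p of 0.943. Around the log2 fold change of -0.02 the interval ran from -0.23 to 0.19 (edgeR p of 0.811, adjusted 0.960), and the sign changed without WT-1015, WT-1061 or DF-1062, each left out alone.

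**Figure D2:**
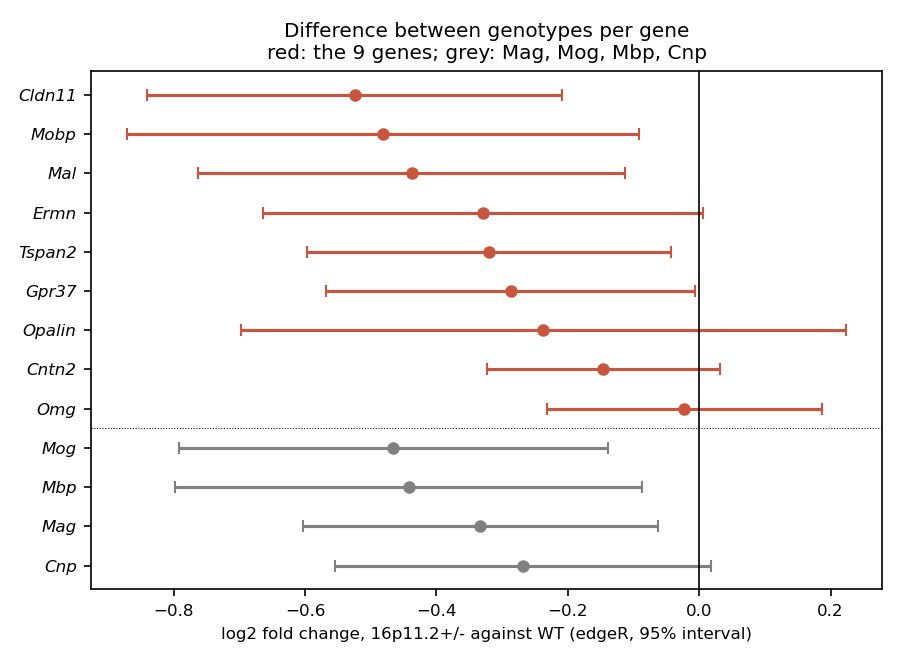
Log2 fold change (x axis) of each of the 9 genes (red) and of Mag, Mog, Mbp and Cnp (grey), with its 95% interval from the edgeR fit, and a vertical line at 0. The estimates run from -0.52 for Cldn11 to -0.02 for Omg, and the intervals of Ermn, Opalin, Cntn2, Omg and Cnp include 0.

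The difference between the genes with the most negative and the least negative fold change was examined within each mouse, by dividing the FPKM of each gene by that of Omg. Omg was picked after the values were seen because its groups differed least, so the ratios largely restate the fold changes and are given as a description, with no test. The ratio of Mobp to Omg was 6.10, 6.90, 6.54 and 6.46 in WT mice and 4.39, 5.72, 5.21 and 3.498 in 16p11.2+/- mice. For Cldn11 it was between 2.60 and 3.03 in WT and between 1.67 and 2.40 in 16p11.2+/- mice, and for Mal between 3.47 and 4.29 and between 2.43 and 3.44. These 3 ratios did not overlap between the groups, as their FPKM did not, with differences on the log2 scale of -0.49, -0.52 and -0.43. A ratio to Omg that was lower in every 16p11.2+/- mouse was found for 1.2% of all genes tested. For Tspan2, Ermn, Gpr37, Opalin and Cntn2 the ratios overlapped, with differences on the log2 scale of -0.30, -0.32, -0.26, -0.21 and -0.12.

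**Figure D3:**
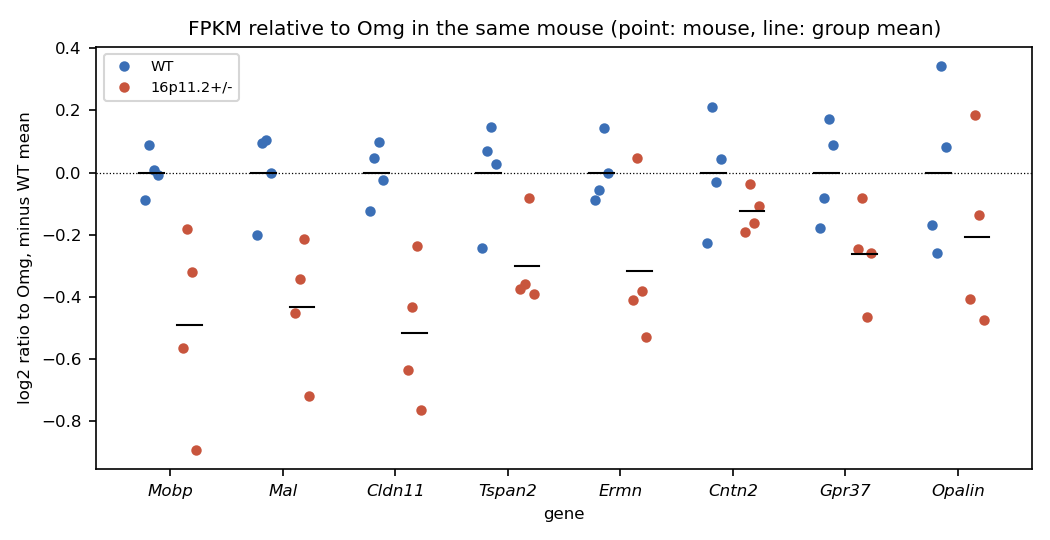
Log2 of the FPKM of 8 genes over the FPKM of Omg in the same mouse, minus the WT mean (y axis), for 4 WT (blue) and 4 16p11.2+/- (red) mice, with group means as lines. The 16p11.2+/- points of Mobp, Mal and Cldn11 all lie below the WT points, and for the other 5 genes the points of both groups overlap.

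The other genes of the sheath were read from the same fit. Of 18 further myelin sheath genes, with Mag, Mog, Mbp and Cnp among them, 17 had a negative log2 fold change. At an unadjusted edgeR p under 0.05, 7 were lower, beside 2.37% of all genes tested. The 7 include Mag, Mog and Mbp, which the paper already reported as lower in these libraries. After adjustment 0 had a p under 0.05, and the median was -0.32. The smallest p was that of Hapln2, which encodes a link protein of the matrix at nodes of Ranvier. Its FPKM was between 25.4 and 27.8 in WT mice and between 18.2 and 21.6 in 16p11.2+/- mice, with a log2 fold change of -0.43 ± 0.09 (SE) and an edgeR p of 0.000850, or 0.576 once adjusted. Mog, an immunoglobulin-like protein of the outermost layer, had a log2 fold change of -0.47 (edgeR p of 0.0106 unadjusted), and Cd82, a tetraspanin like Tspan2, one of -0.60 (edgeR p of 0.0126 unadjusted). The FPKM of Cd82 spread widely in WT mice, from 8.43 to 15.1 around a mean of 10.4. In 16p11.2+/- mice the FPKM of Cd82 was between 5.94 and 7.68. Nfasc, the neurofascin gene that neurons also transcribe, was the only one of these 18 genes with a positive value, 0.04.

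Of 18 oligodendrocyte genes outside the sheath, 17 had a negative log2 fold change, 5 were lower at an unadjusted edgeR p under 0.05 (2.37% of all genes tested were) and 0 after adjustment, with a median of -0.27. Enpp2, which choroid plexus also transcribes, was among the 5 with a log2 fold change of -2.22, and its FPKM was 731 in WT-1063 and at most 132 in every other mouse. Gsn, which encodes the actin-severing protein gelsolin, had a log2 fold change of -0.46 (edgeR p of 0.00446 unadjusted), Ugt8a, the galactosyltransferase of myelin galactolipids, one of -0.37 (0.0203) and Fa2h, the fatty acid 2-hydroxylase of the same lipids, one of -0.39 (0.0241). Of 9 oligodendrocyte precursor genes, 2 had a negative log2 fold change and 0 had an unadjusted edgeR p under 0.05, with a median of 0.05. The smallest p among them were those of Vcan (-0.27, unadjusted edgeR p of 0.0816), Gpr17 (0.23, 0.0889) and Ptprz1 (0.16, 0.118).

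The 11 genes of binding partners and relatives of the 9 proteins (Cntnap2, Kcna1, Kcna2 and Epb41l3 for Cntn2, Rtn4r, Rtn4, Lingo1 and Tnfrsf19 for Omg, Psap and Gpr37l1 for Gpr37, and Tjp1 for Cldn11) had 5 negative values among 11 and a median of 0.09 on the log2 scale. Gpr37l1, the relative of Gpr37 that astrocytes transcribe, averaged an FPKM of 50.1 ± 5.15 in WT mice and 61.7 ± 9.22 in 16p11.2+/- mice (SD, n = 4 each). Its log2 fold change of 0.28 had an edgeR p of 0.0397, or 0.859 once adjusted. It was the only one of the 11 genes at an unadjusted p under 0.05 (1.95% of all genes tested were higher at this level), and Kcna2 (0.20) and Cntnap2 (0.20), the channel and adhesion partners of contactin 2, followed with p of 0.236 and 0.264.

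Each of the 9 genes was also set against the list of 18 oligodendrocyte genes outside the sheath, as a ratio to their summed FPKM. Which cells of the pieces the RNA of these 18 genes came from was not tested. In WT-1063 that sum was carried by Enpp2, with an FPKM of 731 there against 50.3 to 132 in the other WT mice and 39.3 to 76.8 in 16p11.2+/- mice. With Enpp2 in the sum, the difference of the log2 ratio was between 0.06 for Cldn11 and 0.57 for Omg (exact permutation p of at least 0.114). None of the 9 had an exact permutation p under 0.05, and 15.3% of all genes tested did. Without Enpp2, which was left out after its values were seen, it was -0.26 for Mobp, -0.20 for Mal and -0.29 for Cldn11 (exact permutation test, p = 0.0571, 0.257 and 0.114). It was -0.09 for Ermn, -0.07 for Tspan2, -0.03 for Gpr37, 0.02 for Opalin, 0.11 for Cntn2 and 0.23 for Omg, with exact permutation p from 0.114 to 0.914. None of these 9 differences had an exact permutation p under 0.05, and 9.72% of all genes tested did.

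Relative to the summed FPKM of Mag, Mog, Mbp and Cnp, the differences were -0.10 for Mobp, -0.04 for Mal and -0.12 for Cldn11 on the log2 scale, and the largest was 0.39 for Omg (exact permutation test, p = 0.0571). None of the 9 ratios had an exact permutation p under 0.05, which does not show equal change, and 26.3% of all genes tested did.

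Among mice of the same genotype the 9 genes varied in step to different degrees. Log2 CPM with the genotype mean subtracted gave a Pearson's r over the 8 mice of 0.958 between Mal and Cldn11, 0.890 between Mal and Mobp, and 0.881 between Mal and Tspan2. Ermn and Opalin, the pair of loop proteins, had an r of 0.912 with each other, and Gpr37 had 0.778 with Ermn and 0.740 with Opalin. Mobp was as near to them, with 0.826 with Ermn and 0.731 with Opalin. The lowest r were those of Cntn2 with Omg (0.186) and of Gpr37 with Cldn11 (0.276). The r of every pair was positive. The mean log2 CPM of the 9 genes, with genotype means subtracted, was -0.29 in DF-1062 and between -0.12 and 0.19 in the other mice. DF-1062 thus weighs heavily in these r. The 8 points share library and dissection, so these r are descriptions.

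**Figure D4:**
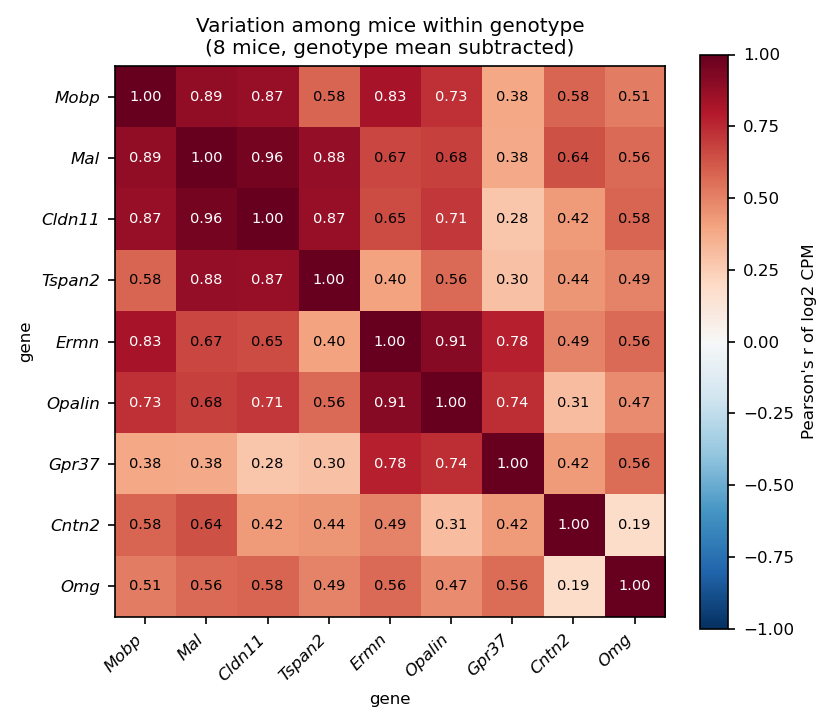
Pearson's r of log2 CPM between each pair of the 9 genes over the 8 mice, after the mean of each genotype was subtracted (colour and number). The r of Mobp, Mal, Cldn11 and Tspan2 with each other run from 0.58 to 0.96 and those of Ermn, Opalin and Gpr37 from 0.74 to 0.91, and the sets are not separate, since Mobp has 0.83 with Ermn and 0.58 with Tspan2.

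The differences between mice were set beside the marker genes of the pieces. DF-1062, with the lowest Mobp, Mal, Cldn11, Tspan2, Ermn, Cntn2 and Opalin, also had the lowest medium spiny neuron score (6.27 mean log2 CPM against 6.71 to 8.83 in the other mice) and the lowest microglia score (3.90 against 4.29 to 4.79). Over the 8 mice, with genotype means subtracted, r with the medium spiny neuron score was 0.810 for Tspan2, 0.796 for Mal and 0.761 for Cldn11. It was 0.734 for Omg, whose level hardly differed between the genotypes, and 0.563 for Mobp. The other r with this score were 0.390 for Cntn2, 0.270 for Opalin, 0.268 for Ermn and 0.170 for Gpr37. The thalamus score, which was high in 3 16p11.2+/- mice and 1 WT mouse, gave r from -0.575 for Cldn11 to 0.238 for Gpr37. The cortical glutamatergic neuron score gave r from -0.135 for Gpr37 to 0.531 for Mobp. Since the groups of Mobp, Mal and Cldn11 did not overlap, the order among mice with like thalamus scores was already fixed and is no separate result. With the thalamus score as a covariate the log2 fold change was -0.41 for Mobp, -0.35 for Mal and -0.41 for Cldn11, and with the medium spiny neuron score -0.37, -0.29 and -0.38. Without WT-1063, DF-1037 and DF-1062, which leaves 3 WT and 2 16p11.2+/- mice, the values were -0.41, -0.31 and -0.41, and 4 of the 9 genes were lower at an unadjusted edgeR p under 0.05, as were 4.53% of all genes tested in that fit. With the score of the 18 oligodendrocyte genes outside the sheath as a covariate they were -0.26, -0.30 and -0.38. The median of the 9 genes was then -0.13. In that fit 0 of 9 genes had an unadjusted edgeR p under 0.05, and 1.8% of all genes tested were lower at this level. This score includes Enpp2 and was highest in WT-1063 (5.79 mean log2 CPM). It also differed between the genotypes, with a mean of 5.65 in WT and 5.34 in 16p11.2+/- mice.

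**Figure D5:**
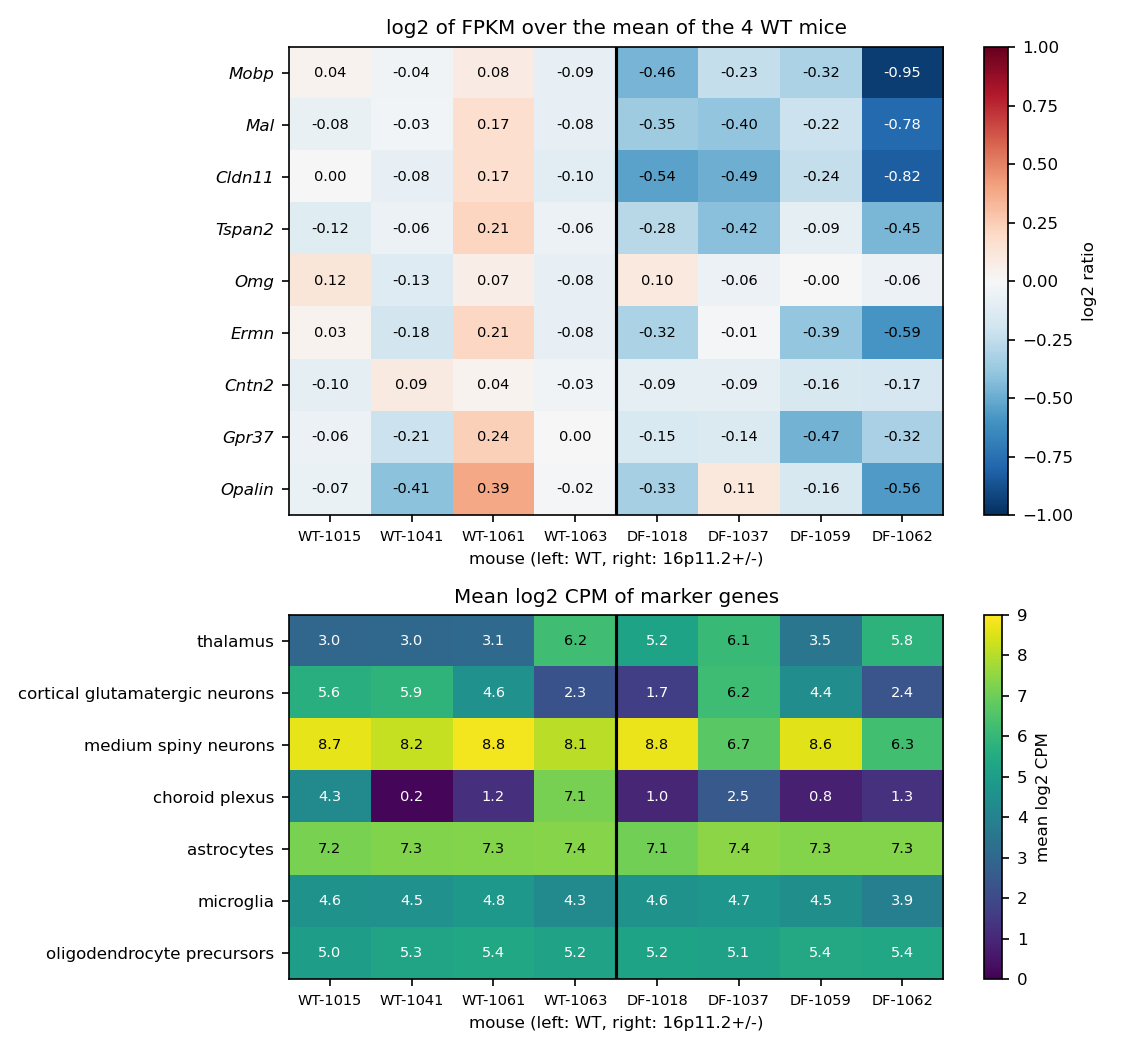
Upper panel: log2 of the FPKM of each of the 9 genes over its mean in the 4 WT mice, for each mouse (columns, WT left of the line and 16p11.2+/- right of it). Lower panel: mean log2 CPM of 7 marker lists in the same mice. DF-1062 holds the lowest values of 7 of the 9 genes and the lowest medium spiny neuron score.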

How the data were processed

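RNA from the striatum of 8 mice (4 WT, 4 16p11.2+/-) was sequenced, 1 library per mouse. The authors trimmed the reads, aligned them with Hisat2 2.1.0 and counted them per gene with Htseq-count. Their raw counts were deposited without normalization. A deposited FPKM accompanied each count, and its implied gene length was the same in every mouse and equalled the GENCODE M21 (GRCm38) exon length, within 0.1% and 1 base, for 95.5% of 14234 genes compared. For Opalin the implied length was shorter. The submitters' processing notes also list Bowtie 0.12.2, mm8 and mm9 with no role, the strand setting is not given in the sources used here, positions are those of GENCODE M21, and rows without an annotated gene held between 0.454% and 0.568% of the counts. A deposited table of the authors' own DESeq2 comparison (group means, fold changes, p-values) and a deposited summary of FPKM bins were not used.

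The quasi-likelihood test of edgeR 4.0.16 (R 4.3.3) was applied to the counts with genotype as the only factor, TMM factors and filterByExpr (at least 10 counts, total at least 15). Benjamini-Hochberg adjustment covered all genes tested, the threshold was 0.05, and standard errors (SE) were derived from the fold change and its F statistic. FPKM and ratios of FPKM (pseudocount 0.1) were tested by exact permutation, two-sided, over the 70 assignments of the mice. p-values measure the spread between these mice. Marker scores are means of log2 CPM with a prior count of 2.

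The genes, lists and marker genes were chosen with earlier results of these data known. Genes named beside the 9 are Mag, Mog, Mbp and Cnp, the 3 genes of each list with the smallest unadjusted p, and the 5 genes most alike in pattern. Nfasc, Enpp2 and the ratio to Omg were added after values were seen. The list gene Sept4 was matched by its identifier, and Aldoa of the deleted segment was left out because its symbol was on more than 1 row. Other tools tried were limma 3.58.1 (voom, trend) and DESeq2 1.42.0, beside RLE factors, library totals, other filters, marker scores as covariates and the removal of single mice. Scripts were tested on simulated counts with 200 changed genes.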

Additional observations from a re-analysis of the deposited data

How the results depend on the processing

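The number of the 9 genes with an adjusted p under 0.05 was 0 in each of the 23 alternatives, and the log2 fold changes of Mobp, Mal, Cldn11, Ermn, Tspan2, Gpr37 and Cntn2 stayed negative in all of them. The median log2 fold change of the 9 genes was -0.32 and lay between -0.36 and -0.23 when any 1 mouse was dropped. It was -0.13 with the score of oligodendrocyte genes outside the sheath, Enpp2 included, as a covariate. There the value of Opalin turned to 0.26 and that of Omg to 0.023. When any 1 mouse was dropped, the values ranged from -0.62 to -0.40 for Cldn11, from -0.57 to -0.32 for Mobp, from -0.51 to -0.31 for Mal, from -0.36 to -0.07 for Opalin and from -0.067 to 0.034 for Omg. Omg was also positive with the thalamus score (0.028), with the medium spiny neuron score (0.062) and without WT-1063, DF-1037 and DF-1062 (0.027). The last 2 alternatives and those without Enpp2 were chosen after seeing the data.

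The ratios to the summed FPKM of oligodendrocyte genes outside the sheath depended on Enpp2 in WT-1063. The difference of the log2 ratio was 0.08 for Mobp, 0.14 for Mal, 0.06 for Cldn11 and 0.26 for Ermn. It was 0.27 for Tspan2, 0.31 for Gpr37 and 0.37 for Opalin. With the sum taken without Enpp2 it was -0.26 for Mobp, -0.20 for Mal, -0.29 for Cldn11, -0.088 for Ermn, -0.072 for Tspan2 and -0.033 for Gpr37. With the mean of log2(FPKM + 1) it was -0.22, -0.16, -0.25, -0.049 and -0.033 for Mobp, Mal, Cldn11, Ermn and Tspan2. With that mean taken without Enpp2 it was -0.28, -0.23, -0.31, -0.11 and -0.10, and -0.058 for Gpr37 and -0.0034 for Opalin. Against Mag, Mog, Mbp and Cnp it was -0.10, -0.039 and -0.12 for Mobp, Mal and Cldn11. When any 1 mouse was dropped it ran from -0.24 to 0.23 for Mobp, from -0.18 to 0.29 for Mal, from -0.27 to 0.20 for Cldn11, from -0.065 to 0.41 for Ermn and from -0.040 to 0.43 for Tspan2, and the lowest of each was that without WT-1063. No paired analysis was possible because the labels give the mice no shared replicate numbers. With between 231 and 443 counts per mouse, Opalin had the widest interval of the 9 genes.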

Other observations

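The 5 tested genes outside the 9 whose log2 CPM, with genotype means subtracted, was most alike to the mean of the 9 genes over the 8 mice were Tyrobp, Ubr7, Carns1, Prr5l and Epb41l2, with a Pearson's r of 0.981, 0.980, 0.978, 0.9747 and 0.966. Of the 18294 genes tested, 19 had an r of at least 0.95, and the 5 were taken from all of them as the highest, so these r are descriptions. Carns1, the carnosine synthase gene, and Prr5l had log2 fold changes of -0.36 and -0.48 (edgeR p of 0.0854 and 0.0171 unadjusted, 0.859 adjusted). Tyrobp, which encodes a signalling adaptor of microglia, had one of 0.30 (edgeR p of 0.266 unadjusted). The score of 6 microglia markers, which does not include Tyrobp, had an r of 0.909 with the mean of the 9 genes, against 0.864 for the 18 other sheath genes and -0.136 for the 9 oligodendrocyte precursor genes. The microglia score was between 4.29 and 4.79 mean log2 CPM in WT mice and between 3.90 and 4.74 in 16p11.2+/- mice, and of the 6 markers 0 had an unadjusted edgeR p under 0.05. DF-1062 had both the lowest microglia score and the lowest mean of the 9 genes, so it weighs heavily in the r of 0.909. The part of microglial RNA in these values was not tested.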
